A study of Mus musculus with 6 samples.

Results

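Immunoglobulin heavy chain V segments (Ighv genes) were described in RNA-seq libraries of mouse bone marrow LSK cells, the lineage-negative, Sca-1-positive, Kit-positive fraction that holds blood stem cells and early progenitors. A gene was a member when its symbol begins with Ighv and GENCODE classes it as an IG_V_gene, which gave 113 of the 54532 genes in the count tables. The first number in a symbol is the V family, and the 113 members fall into 16 families, of which family 1 is the largest with 53 members.

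The 6 libraries came in 2 groups of 3. Both groups carry Phf6fl-R274X on the single X chromosome of a male (Phf6fl-R274X/Y), by its name a floxed allele of the chromatin regulator gene Phf6 made to be acted on by Cre recombinase. One group has no Cre and is called floxed, and the other also carries Vav1-Cre, in which the Vav1 promoter drives Cre in blood cells from the stem cell on. Because Cre was present in every library of one group and in none of the other, an effect of Cre itself cannot be told apart from that of the allele. The labels give no age and do not say that each library came from a separate animal, so p-values measure the spread between libraries, which may be technical.

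A heavy chain gene is built in developing B cells by joining 1 V segment to a D and a J segment, and the joined V exon is then spliced to a constant region, first that of Ighm. A V segment is therefore transcribed at a high level mainly in a B-lineage cell that has rearranged it, and plasma cells carry the most of this RNA. Unrearranged segments also give low germline transcripts in early B-lineage cells, and a gene-level count does not separate the forms. The LSK gate removes cells that bear lineage markers, which usually include a B cell marker. In bulk RNA, more cells of a type and more RNA per cell cannot be told apart.

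All 113 members lie on the minus strand of chromosome 12, between positions 113578504 and 116000461 of GRCm38, with a median exon length of 353 bases (294 to 480). Family members resemble each other, so the sequences that separate the leading segments are shown here. The last 150 bases of the annotated transcript, from GENCODE release M21 on GRCm38, are given 5′ to 3′ on the coding strand, with capitals at the bases that differ from the nearest other member. They cover the end of the V exon, with part of the second hypervariable loop, the third framework region and the first bases of the third loop. Ighv5-16 (chr12:113838526-113839010), Ighv6-3 (chr12:114391712-114392169), Ighv7-1 (chr12:113896408-113896946), Ighv11-2 (chr12:114048241-114048812), Ighv12-3 (chr12:114366521-114366954) and Ighv1-75 (chr12:115833950-115834418) are shown because they held much of the Ighv counts with Vav1-Cre, and Ighv1-80 (chr12:115912344-115912776) because it stood highest in 1 floxed library.
Ighv5-16: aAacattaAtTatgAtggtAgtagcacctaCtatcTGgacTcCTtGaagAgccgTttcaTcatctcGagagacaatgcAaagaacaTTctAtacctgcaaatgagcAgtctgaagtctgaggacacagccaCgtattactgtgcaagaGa
Ighv6-3: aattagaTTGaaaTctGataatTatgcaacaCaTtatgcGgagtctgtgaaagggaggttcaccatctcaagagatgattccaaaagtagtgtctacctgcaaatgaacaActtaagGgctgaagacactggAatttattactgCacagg
Ighv7-1: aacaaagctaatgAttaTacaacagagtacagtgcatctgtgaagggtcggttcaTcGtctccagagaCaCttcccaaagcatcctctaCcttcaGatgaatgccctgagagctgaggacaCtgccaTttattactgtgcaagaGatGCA
Ighv11-2: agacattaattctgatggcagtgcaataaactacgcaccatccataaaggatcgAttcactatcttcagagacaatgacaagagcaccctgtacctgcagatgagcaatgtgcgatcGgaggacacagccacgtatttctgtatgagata
Ighv12-3: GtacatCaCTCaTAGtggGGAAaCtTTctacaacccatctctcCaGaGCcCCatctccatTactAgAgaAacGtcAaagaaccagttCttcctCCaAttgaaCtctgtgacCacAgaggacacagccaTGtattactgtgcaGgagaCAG
Ighv1-75: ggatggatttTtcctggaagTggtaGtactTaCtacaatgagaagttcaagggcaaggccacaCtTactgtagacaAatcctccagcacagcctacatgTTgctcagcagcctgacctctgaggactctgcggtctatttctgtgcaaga
Ighv1-80: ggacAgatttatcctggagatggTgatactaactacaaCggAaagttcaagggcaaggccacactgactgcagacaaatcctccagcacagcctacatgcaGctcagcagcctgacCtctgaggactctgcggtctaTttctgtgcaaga
Over the last 290 bases, Ighv5-16 was 86.2% identical to its nearest member Ighv5-12, Ighv6-3 92.4% to Ighv6-6, and Ighv7-1 88.2% to Ighv7-3. Ighv12-3, the sole member of its family, reached 78.4% with Ighv3-6. Ighv11-2 and Ighv11-1 were 98.6% identical, and Ighv1-75 and Ighv1-80 each reached 96.2% with another family 1 member. Across the 113 members the nearest member was in the same family for 108, with a median identity of 95.5% and a range from 71.7% to 100%.

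The pair Ighv1-15 (chr12:114657353-114657786) and Ighv1-23 (chr12:114764450-114764883) is shown because its members are 98.3% identical over 290 bases, with 2 differences in the 150 printed, and had different counts.
Ighv1-15: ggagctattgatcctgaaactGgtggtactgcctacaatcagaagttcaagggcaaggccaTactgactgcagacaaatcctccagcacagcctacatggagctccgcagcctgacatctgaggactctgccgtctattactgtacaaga
Ighv1-23: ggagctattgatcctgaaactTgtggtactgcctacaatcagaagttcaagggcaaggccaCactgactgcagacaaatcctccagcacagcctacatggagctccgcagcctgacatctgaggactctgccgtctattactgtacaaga
No source used here says how the deposited counts treated reads that fit several segments. Of all 50-base windows of a member, a median of 21.9% also occurred in another annotated gene, 20 members shared none, and 16 shared more than 50% of them. Counts of single segments within a family are therefore uncertain to that extent. Ighv5-16, Ighv7-1 and Ighv12-3 shared no such window, while Ighv6-3 shared 14.0%, Ighv1-80 18.5%, Ighv11-2 38.6% and Ighv1-75 42.9%.

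Libraries held 15406314 to 18106065 counts each. Phf6 fell from 29.6 to 33.5 CPM (counts scaled to a common library size with TMM factors) in floxed libraries to 8.29 to 10.2 with Vav1-Cre, a log2 fold change of -1.81. Of 8 stem and progenitor markers, 7 fell with Vav1-Cre and 1, Ly6a (the gene of Sca-1), rose. The summed CPM of that list was 1650 to 1727 in floxed libraries and 1222 to 1384 with Vav1-Cre.

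The Ighv segments as a class were higher in every Vav1-Cre library. They took 0.0505%, 0.0235% and 0.0957% of all counts in the floxed libraries and 0.618%, 0.772% and 0.399% with Vav1-Cre. Groups did not overlap, and the lowest Vav1-Cre library lay above the highest floxed library. Means were 0.0566% ± 0.0364 and 0.596% ± 0.187 (SD, n = 3 each), a ratio of 10.5, which was 16.1 without floxed library 3. The two-sided exact permutation test gave p = 0.1, the smallest p that 3 against 3 libraries allow. The 95% Wilson interval of each share, which covers counting error only, was narrow beside the gaps, for example 0.0494% to 0.0516% in floxed library 1.

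More segments were detected with Vav1-Cre. The floxed libraries had at least 1 count in 82, 73 and 86 members, against 103, 102 and 100 in the Vav1-Cre libraries. At least 10 counts were present in 56, 42 and 63 members of the floxed libraries and in 90, 87 and 82 with Vav1-Cre. Libraries were not brought to an equal number of Ighv counts. These were 9146, 4046 and 16928 in floxed libraries and 104405, 124063 and 61474 with Vav1-Cre. With more Ighv counts more members reach a fixed limit, and detection at equal Ighv counts was not tested. Counts were found in all 6 libraries for 59 members, while 6 had none in any library (Ighv5-12-4, Ighv7-2, Ighv16-1, Ighv6-7, Ighv1-16 and Ighv1-24).

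Ighm, Igkc and the Igkv segments had the same order of libraries as the Ighv segments. Counts of Ighm, the constant region of IgM, were 48586, 23803 and 84377 in floxed libraries and 415685, 479524 and 266367 with Vav1-Cre, and Ighm rose by a log2 fold change of 3.19 (adjusted p = 0.0373, edgeR). Floxed library 2 was lowest, then floxed 1, floxed 3, Vav1-Cre 3, Vav1-Cre 1 and Vav1-Cre 2, both for Ighm and for the Ighv share. The log2 ratio of Ighv to Igh constant region counts was -2.46, -2.62 and -2.38 in floxed libraries and -2.06, -1.99 and -2.16 with Vav1-Cre, so V counts were higher relative to constant region counts in each Vav1-Cre library. The difference of means was 0.42 (exact permutation p = 0.1). Without Ighv6-3, the segment of the highest mean CPM, it was 0.17 and the groups overlapped (exact permutation p = 0.2). Kappa light chain V segments (100 Igkv genes) took a share of all counts that was 9.92 times higher with Vav1-Cre by group means, close to the 9.77 of Igkc.

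The pseudogenes, J segments and D segments of the same locus had few counts in either group. The 70 Ighv entries annotated as pseudogenes had 130, 95 and 139 counts in the floxed libraries and 144, 131 and 111 with Vav1-Cre. Their groups overlapped, with a ratio of mean shares of 1.16 (exact permutation p = 0.2). The 4 Ighj segments, which are very short, had 184, 128 and 171 counts in floxed libraries and 174, 205 and 200 with Vav1-Cre. As shares of all counts their groups did not overlap, with a ratio of 1.32 (exact permutation p = 0.1). The gap was very small, with 0.00102% in floxed library 1 (184 counts) and 0.00103% in Vav1-Cre library 1 (174 counts). The 17 D segments, also very short, had 24, 24 and 31 counts against 73, 68 and 39, again without overlap, with a ratio of 2.48 (exact permutation p = 0.1).

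Markers of several other cell types were higher with the Ighv counts. For plasma cells, 6 of 10 markers rose and 0 fell, with a summed CPM of 375 to 957 in floxed libraries and 2144 to 4787 with Vav1-Cre. For B cells, 7 of 10 tested markers rose and 0 fell, with sums of 482 to 769.6 and 1180 to 2024. Of 10 early B and recombination genes 1 rose, Pax5, and 0 fell, with sums of 824 to 1551 and 1979 to 3535. Their median log2 fold change was 2.01, against 1.87 for the B cell list, and only Rag2 and Dntt overlapped between the groups. In floxed libraries most of that sum was Dntt, with 597 to 994 CPM there and 977 to 1458 with Vav1-Cre. Jchain, which links IgM and IgA into polymers, stood at 240.7, 101.4 and 579.6 CPM in floxed libraries and 3591, 3717 and 1478 with Vav1-Cre (adjusted p = 0.0813). T cell markers rose in 7 of 7, from sums of 22.9 to 28.7 to sums of 51.3 to 64.4 CPM, and 2 of 4 erythroid markers rose (sums of 689.9 to 1049 and 1613 to 2758). Of 6 myeloid markers 2 rose, Cd68 and Adgre1, and 0 fell. Their summed CPM was 1541 to 2995 in floxed libraries and 867 to 1735 with Vav1-Cre. Most of that sum was Mpo and Elane, with log2 fold changes of -0.93 and -0.95 (adjusted p = 0.205 and 0.315). No marker on these lists was at 0 in all 6 libraries. The part of these cells in the Ighv counts was not tested.

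**Figure D1:**
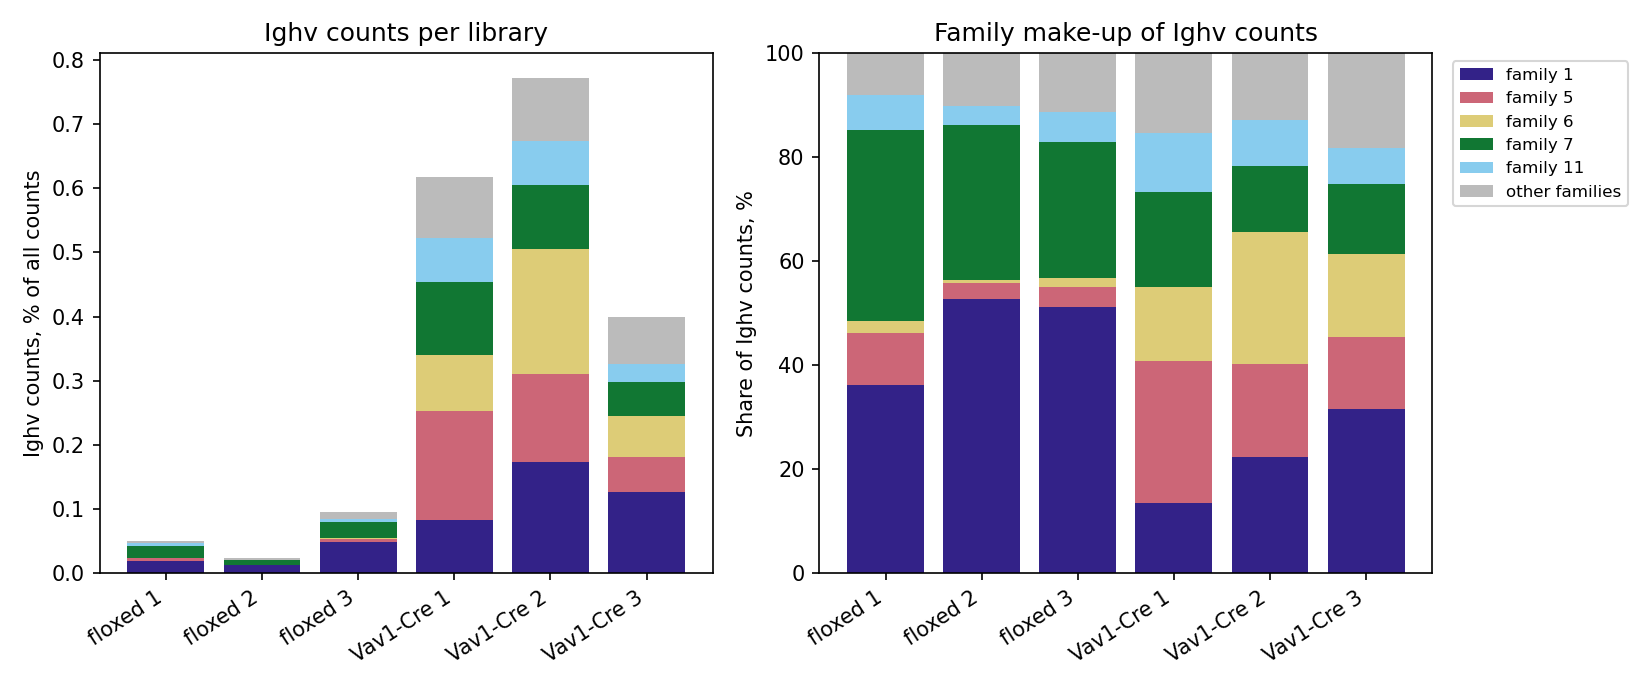
Ighv counts by V family in the 6 libraries, as a percentage of all counts (left) and of the library's Ighv counts (right), with 1 bar per library and 1 colour per family. Bars reach 0.0235% to 0.0957% in the floxed libraries and 0.399% to 0.772% with Vav1-Cre, and the part of families 5 and 6 is larger in each Vav1-Cre library.

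All 15 families that had any counts took a higher share of all counts in each Vav1-Cre library than in any floxed library (exact permutation p = 0.1 each, adjusted 0.1 over the families). The size of the difference varied widely between families. Family 6 had 211, 29 and 277 counts in the floxed libraries and 14811, 31454 and 9732 with Vav1-Cre, a ratio of mean shares of 119.5. Family 12, with Ighv12-3 alone, had 8, 5 and 51 counts against 3241, 2527 and 1444, a ratio of 122.5. Family 5, which holds the segments nearest the D segments, had 913, 125 and 657 counts against 28581, 22015 and 8548, a ratio of 38.1. The lowest ratios among families with counts in the floxed group were 4.80 for family 1, 5.25 for family 7 and 5.97 for family 14. Ratios for families 2, 3, 4, 8, 9, 10 and 11 lay between 10.2 and 26.1. Many of these ratios rested on floxed library 3. Without it they were 403 for family 12, 112 for family 4, 53.1 for family 2, 29.9 for family 10, 26.1 for families 9 and 11, 18.2 for family 3 and 8.32 for family 1. Without Vav1-Cre library 2 the ratio was 78.0 for family 6 and 7.96 for family 2, and without Vav1-Cre library 3 it was 14.0 for family 4. In every such case the ratio stayed above 1.

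The make-up of the Ighv counts therefore differed between the groups. Family 1 held 36.1%, 52.6% and 51.2% of the Ighv counts in floxed libraries and 13.5%, 22.4% and 31.6% with Vav1-Cre. Family 7 held 36.8%, 29.7% and 26.1% against 18.3%, 12.7% and 13.5%. These families had the 2 largest shares in each floxed library, and every Vav1-Cre library lay below every floxed library for both. Within family 1, Ighv1-80 alone held 1.95%, 23.8% and 29.6% of the Ighv counts in floxed libraries and 0.0556%, 0.0975% and 0.158% with Vav1-Cre. In floxed libraries Ighv7-1 had 3328, 1157 and 4175 of the 3366, 1202 and 4423 family 7 counts. In floxed library 3, Ighv1-80 took 29.6% and the whole family 51.2% of the Ighv counts. The rest of family 1 there lay below that of Vav1-Cre library 3, where Ighv1-80 took 0.158% and the family 31.6%. Family 1 without Ighv1-80 therefore overlapped between the groups. Whether family 7 stays lower without Ighv7-1 was not tested. Family 6 held 2.31%, 0.717% and 1.64% in floxed libraries and 14.2%, 25.4% and 15.8% with Vav1-Cre. Family 5 went from 9.98%, 3.09% and 3.88% to 27.4%, 17.7% and 13.9%. Mean shares of family 11 were 5.37% ± 1.58 and 9.03% ± 2.19 (SD, n = 3 each), and those of family 12 were 0.171% ± 0.114 and 2.50% ± 0.549. Families 5, 6, 10, 11, 12, 13 and 15 did not overlap between the groups and had higher shares. Of these, families 13 and 15 had 0 counts in floxed libraries and few with Vav1-Cre. Families 1, 7 and 14 did not overlap and had lower shares. For each family without overlap the exact permutation p was 0.1, the smallest possible, and 0.15 adjusted over the families. Without Ighv6-3, family 1 (36.9%, 52.9% and 51.9% against 15.2%, 29.5% and 37.3%) and family 14 overlapped (exact permutation p = 0.2 each). The mean difference of family 6 then fell from 16.9 to 1.67 percentage points, still without overlap. Families 2, 3, 4, 8 and 9 overlapped.

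Ighv7-1 and Ighv11-2 were among the 10 highest segments in all 6 libraries, and Ighv5-16 and Ighv6-3 were so in all 3 Vav1-Cre libraries. Per length, Ighv7-1 was highest in floxed libraries 1 and 2 (482 and 168 FPKM, a level per kilobase of exon) and Ighv1-80 in floxed library 3 (766 FPKM). Ighv5-16 led Vav1-Cre library 1 (3831 FPKM), and Ighv6-3 led libraries 2 and 3 (5501 and 1767 FPKM). Over all members, the sum of the smaller of 2 libraries' shares was 63.3% to 80.1% between floxed libraries and 59.8% to 71.1% between Vav1-Cre libraries. It was 32.9% to 49.2% for pairs of libraries from different groups, which is a description without a test.

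Counts were spread over more segments with Vav1-Cre. The highest segment held 36.4%, 28.6% and 29.6% of the Ighv counts in the floxed libraries and 21.7%, 23.9% and 15.6% with Vav1-Cre. The effective number of segments (the inverse Simpson index, the number of equally used segments that would give the same concentration) was 6.65, 6.84 and 6.34 in the floxed libraries and 8.93, 9.23 and 11 with Vav1-Cre. Neither measure overlapped between the groups (exact permutation p = 0.1 each).

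In edgeR's quasi-likelihood test over all genes, 25 of the 86 tested members rose with Vav1-Cre and 0 fell, at a Benjamini-Hochberg adjusted p of 0.05. Of all 14608 genes tested, 10.1% rose and 7.89% fell (1469 and 1152 genes). With upper-quartile scaling 1215 genes rose and 1430 fell, while the members were again 25 and 0. At an unadjusted p under 0.05, 47 members were higher and 1, Ighv1-80, was lower. The 27 untested members had too few counts. Of the 86, 16 passed the filter on low counts with every Vav1-Cre library and no floxed library above its limit, and so had to be higher with Vav1-Cre. Another 28 passed with every Vav1-Cre library and 1 or 2 floxed libraries above it. The count and the median over tested members therefore describe the data and support nothing further. The median log2 fold change was 3.43 over tested members and -0.02 over all tested genes.

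This count moved with single libraries. It was 7, 6 and 16 without floxed library 1, 2 or 3, and 12, 14 and 40 without Vav1-Cre library 1, 2 or 3. Other tests gave 51 (DESeq2), 51 (edgeR without robust estimation) and 27 (limma-voom). The members called lower were 1 in DESeq2 and in edgeR without robust estimation, Ighv1-80, and 0 in limma-voom. Members also varied between libraries of a group. The median SD of CPM was 87.5% of the mean in floxed libraries and 67.5% with Vav1-Cre for tested members, against 9.66% and 10.8% for all tested genes. Of the 61 tested members that did not pass, 47 had a fitted log2 fold change of 1 or more, and 29 had groups that did not overlap, 28 of them higher with Vav1-Cre and 1 lower.

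Over all 113 members, 59 were higher in each Vav1-Cre library than in any floxed library, and 53 of these were tested. Among all tested genes 18.9% had this pattern upward and 18.3% downward. For 16 of the tested members the filter fixed the upward pattern, since every Vav1-Cre library and no floxed library was above its limit. The number with this pattern therefore describes the data and supports nothing further. A single member, Ighv1-80, was lower in every Vav1-Cre library. By family, the members that rose were 14 of 43 tested in family 1, 3 of 8 in family 5 and 2 of 2 in family 6. Families 2, 3, 9, 10, 12 and 14 had 1 each, and families 4, 7, 8 and 11 had 0. Of all tested genes 10.1% rose, and some of these members passed the count filter only through the Vav1-Cre libraries.

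**Figure D2:**
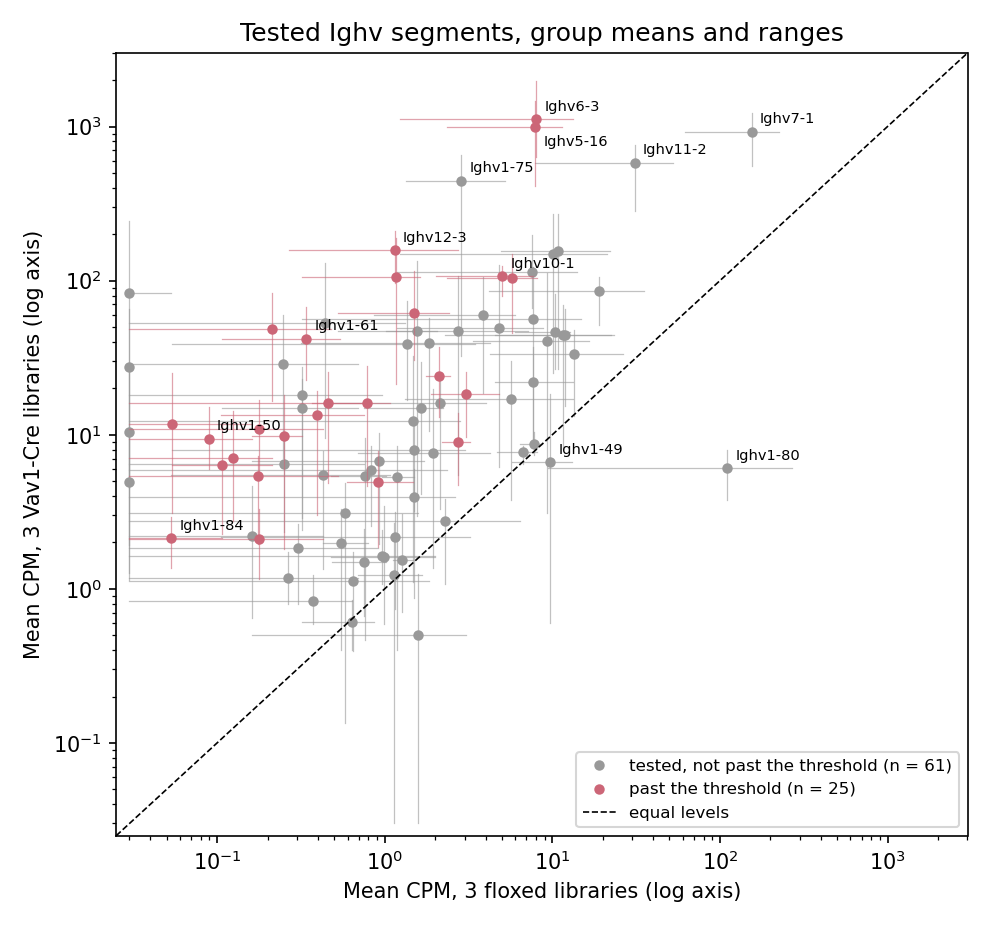
Mean CPM of the 86 tested Ighv segments in the 3 floxed libraries (x axis, log) and the 3 Vav1-Cre libraries (y axis, log), with thin lines from the lowest to the highest library of each group and values under 0.03 drawn at 0.03. The 25 segments past the threshold (red) all lie above the line of equal levels, and Ighv1-80 lies far below it.

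Ighv7-1, the segment of classic phosphorylcholine-binding antibodies, had the highest mean level per length in the floxed group (422 FPKM). Its CPM were 176.2, 62.0 and 224.7 in floxed libraries and 1218, 1014 and 551 with Vav1-Cre. Groups did not overlap, but the log2 fold change of 2.59 (SE 0.65) did not pass the test (adjusted p = 0.0696, edgeR). Ighv11-2, known from B-1 cell antibodies that bind phosphatidylcholine, had 32.5, 7.88 and 52.5 CPM in floxed libraries and 756, 709 and 282 with Vav1-Cre. It too missed the threshold narrowly, with a log2 fold change of 4.23 (SE 0.92) and an adjusted p of 0.0512. Both passed in some alternatives, and their adjusted p ranged from 0.000348 to 0.194 for Ighv7-1 and from 6.4e-06 to 0.166 for Ighv11-2.

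Ighv12-3, the other segment known from phosphatidylcholine-binding B-1 cell antibodies, rose. It had 0.424, 0.268 and 2.75 CPM in floxed libraries and 209.6, 167 and 96.6 with Vav1-Cre, a log2 fold change of 7.10 (SE 0.84, adjusted p = 0.0118). The highest floxed library was far below the lowest Vav1-Cre library. The call was lost without floxed library 1 or 2 or Vav1-Cre library 1 or 2, with adjusted p of 0.0501 to 0.0582.

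Ighv5-16 and Ighv6-3 were low in the floxed group and among the 4 highest in every Vav1-Cre library. Ighv5-16 had 9.79, 2.36 and 11.5 CPM in floxed libraries and 1463, 1107 and 412 with Vav1-Cre, a log2 fold change of 6.98 (SE 0.97, adjusted p = 0.0176). Ighv6-3 had 9.58, 1.23 and 13.2 CPM in floxed libraries and 766, 1964 and 629.7 with Vav1-Cre, a log2 fold change of 7.12 (SE 1.16, adjusted p = 0.026). For both, the lowest Vav1-Cre library exceeded every floxed library. Both calls were lost without any 1 floxed library and without Vav1-Cre library 1 or 2, with adjusted p up to 0.078 for Ighv5-16 and up to 0.107 for Ighv6-3. Ighv6-6, the nearest relative of Ighv6-3, rose as well (log2 fold change 6.49, adjusted p = 0.0379), and its call was lost without the same libraries (adjusted p up to 0.135).

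**Figure D3:**
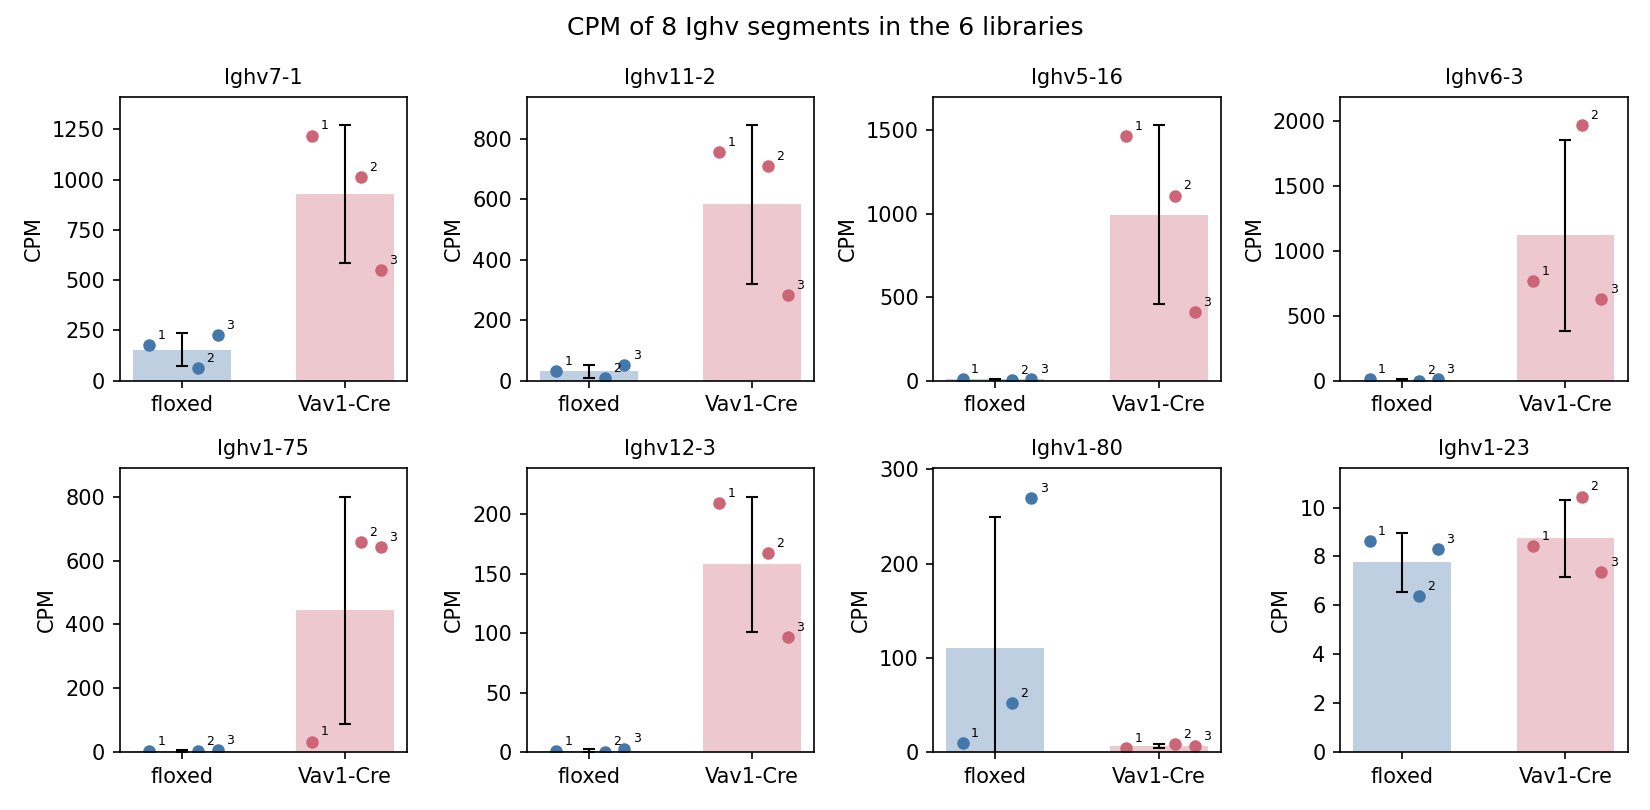
CPM of 8 Ighv segments by group, with points for the numbered libraries, bars for the group mean and error bars for 1 SD (n = 3). Vav1-Cre libraries lie above the floxed libraries for 6 segments, Ighv1-80 is highest in floxed library 3, and Ighv1-23 overlaps, and the lower SD bar of Ighv1-80 runs below 0 and is not drawn there.

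Ighv1-80 went the other way. It had 9.42, 51.6 and 269.8 CPM in floxed libraries and 3.75, 8.0 and 6.49 with Vav1-Cre. The groups did not overlap, but the floxed libraries themselves spanned a wide range, and floxed library 1 lay close to the Vav1-Cre libraries. The log2 fold change was -4.18 (SE 1.51) with an adjusted p of 0.151 in edgeR, 0.0304 without robust estimation and 0.00452 in DESeq2. It held 23.8% of the Ighv counts in floxed library 2 and 29.6% in floxed library 3. Ighv1-49, another of the 4 tested members with a fitted log2 fold change below 0, had 248, 107 and 193 counts in floxed libraries and 15, 277 and 9 with Vav1-Cre, so that Vav1-Cre library 2 stood above the other libraries of its group (log2 fold change -0.56, adjusted p = 0.821). Without that library Ighv1-49 was called lower (adjusted p = 0.00255).

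Ighv1-75, 4 positions nearer to the D segments than Ighv1-80, had 2.01, 1.34 and 5.22 CPM in floxed libraries and 32.5, 657 and 643 with Vav1-Cre. All Vav1-Cre libraries were above all floxed libraries, with library 1 much lower than the others. The log2 fold change of 7.28 (SE 1.63) did not pass the test (adjusted p = 0.054).

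The 2 smallest adjusted p values belonged to segments of family 1 with low counts. Of their 50-base windows, 58.3% for Ighv1-84 and 52.2% for Ighv1-50 also occurred in another annotated gene. The nearest member of Ighv1-84 was Ighv1-75, with 503, 9935 and 9617 Vav1-Cre counts. That of Ighv1-50 was Ighv1-69, with 2316, 1746 and 684. Whether reads of these relatives were counted for Ighv1-84 and Ighv1-50 was not tested. Ighv1-84 had 1, 2 and 0 counts in floxed libraries and 21, 44 and 32 with Vav1-Cre. From these 3 and 97 counts the ratio was 39.9, with a 95% counting interval of 13.2 to 197 (adjusted p = 0.000559). Ighv1-50 had 2, 0 and 3 counts in floxed libraries and 111, 91 and 225 with Vav1-Cre, a log2 fold change of 6.61 (SE 0.64, adjusted p = 0.00057). Both stayed past the threshold in every alternative that gave a value, 17 for Ighv1-84 and 18 for Ighv1-50. Neither had a floxed library above the limit of the count filter, so both had to be higher with Vav1-Cre. Their p values and their staying past the threshold therefore support nothing further. Ighv1-61 had 0.371, 0.107 and 0.538 CPM in floxed libraries and 66.9, 22.7 and 36.1 with Vav1-Cre (log2 fold change 6.92, adjusted p = 0.00861), and was lost without floxed library 1 (0.0531). It shared 61.9% of its windows and also had no floxed library above that limit. Ighv1-78 had 2.44, 1.77 and 2.10 CPM in floxed libraries, the most even of these, and 21.9, 37.4 and 13.0 with Vav1-Cre (log2 fold change 3.51, adjusted p = 0.0103). It was lost without any 1 floxed library (0.0516 to 0.0616).

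Other segments that rose were spread over families. Ighv10-1, of a family known from antibodies to DNA, had 5.35, 2.04 and 7.64 CPM in floxed libraries and 125.3, 116 and 79.4 with Vav1-Cre (log2 fold change 4.41, adjusted p = 0.0122). Among the 12 segments with the highest mean CPM it was the most even with Vav1-Cre, and was lost without floxed library 1 (0.0644) or Vav1-Cre library 1 (0.0549) or 2 (0.0503). Ighv3-8 rose by a log2 fold change of 5.87 (adjusted p = 0.0115) and Ighv1-4 by 3.51 (adjusted p = 0.00965), and both were lost without floxed library 1 (0.0687 and 0.0588). Ighv1-59 had the largest fitted log2 fold change among members that rose, 7.79 (adjusted p = 0.0214), and was lost without any 1 floxed library or Vav1-Cre library 2 (up to 0.09). Ighv1-69 (4.18, adjusted p = 0.031) and Ighv14-2 (2.58, adjusted p = 0.0372) were lost without floxed library 1 or 2 or Vav1-Cre library 1 or 2, Ighv1-69 also without floxed library 3 (up to 0.101 and 0.140). Ighv2-9 rested on 3 floxed counts against 536, a ratio of 220.2 with a 95% counting interval of 75.0 to 1071 (adjusted p = 0.0459). It was lost without any 1 floxed library (up to 0.216) or Vav1-Cre library 3 (0.0739). Ighv3-8, Ighv1-4, Ighv1-59 and Ighv2-9 had no floxed library above the limit of the count filter and so had to be higher with Vav1-Cre.

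Several segments had no count in any floxed library. Ighv2-4 had 1014, 181 and 67 counts with Vav1-Cre, at least 519-fold higher than a floor of 3 counts over the floxed group. Ighv11-1, the near-copy of Ighv11-2, had 72, 380 and 19 counts and was at least 194-fold higher, and Ighv9-4, with 59, 150 and 17, was at least 92.9-fold higher. None of these 3 passed the test, with adjusted p of 0.214, 0.241 and 0.128, and their counts differed severalfold between Vav1-Cre libraries. In all, 17 members had 0 floxed counts. Of these, 6 had counts in every Vav1-Cre library and 6 others had none in any library.

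A few segments were high in 1 library. Ighv3-4 had 1, 0 and 0 counts in floxed libraries and 42, 29 and 3633 with Vav1-Cre (adjusted p = 0.161). Ighv8-5 had 31, 19 and 38 against 46, 60 and 2013 (adjusted p = 0.206), and Ighv1-47 had 150, 63 and 308 against 48, 95 and 1682 (adjusted p = 0.462). All 3 were high in Vav1-Cre library 3, and without it the log2 fold change of Ighv1-47 turned from 2.13 to -0.99. That library had the lowest Ighv share of its group and the highest effective number of segments.

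The near-identical pair behaved differently. Ighv1-15 had 265, 22 and 139 counts in floxed libraries and 1024, 1148 and 2972 with Vav1-Cre, without overlap (log2 fold change 3.91, SE 1.01, adjusted p = 0.0752). Ighv1-23 had 163, 119 and 154 counts against 130, 158 and 110, with full overlap (log2 fold change 0.17, SE 0.19, adjusted p = 0.581). Ighv1-23 and Ighv1-77 (153, 87 and 137 counts against 100, 128 and 124) were the 2 members with at least 50 counts whose highest CPM was less than 2 times the lowest. Ighv1-62-2 and Ighv1-71 could not be told apart over their last 290 bases, where they are identical, and had 0, 0 and 18 against 371, 419 and 36 counts, and 1, 0 and 1 against 3, 7 and 0.

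**Figure D4:**
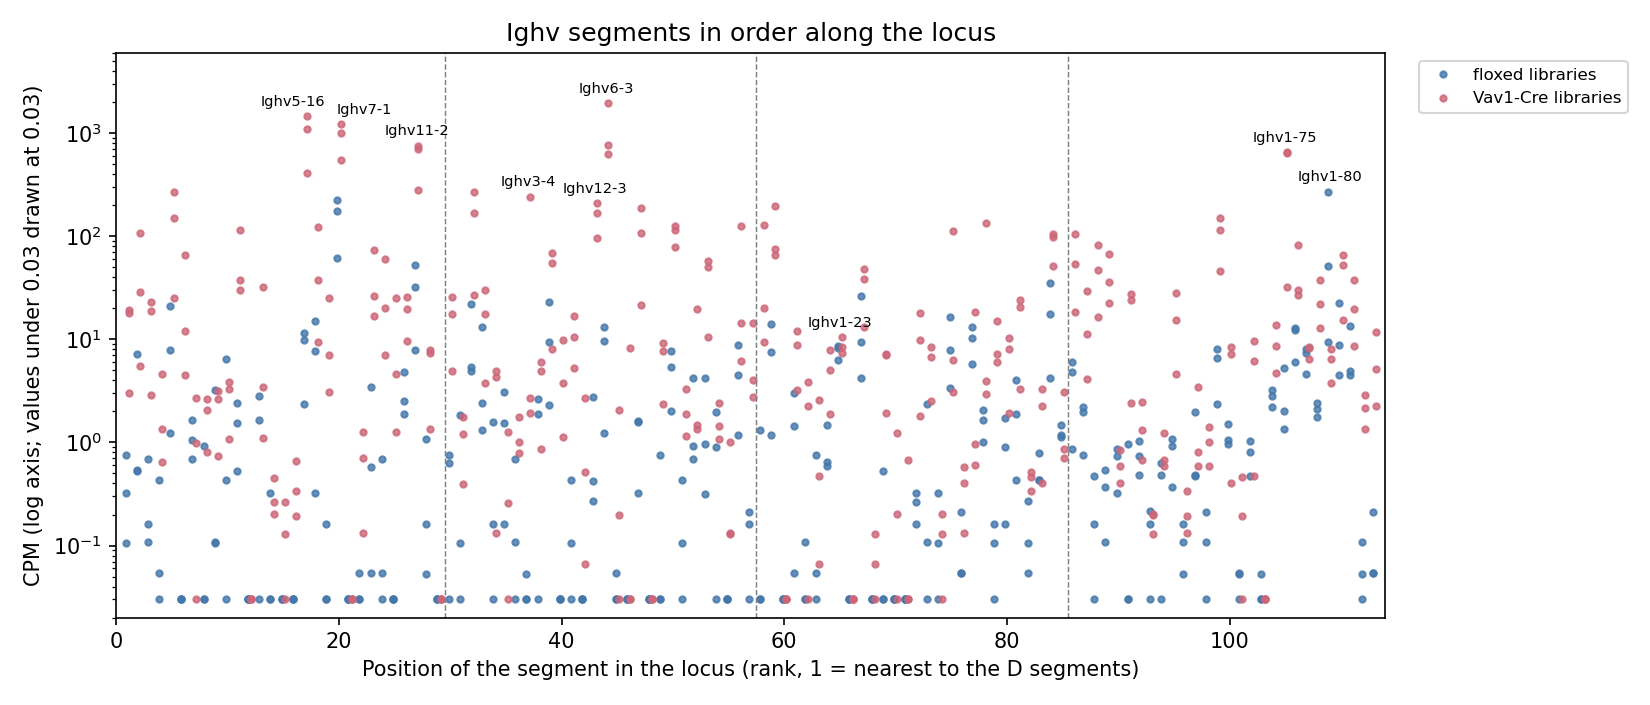
CPM (log axis) of the 113 Ighv segments in order along the locus, from the segment nearest the D segments, with 1 point per library and dashed lines between the 4 sections by rank. Vav1-Cre points above 200 CPM are found in sections 1, 2 and 4, and the 1 floxed point near 270 belongs to Ighv1-80.

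Position in the locus was examined in 4 sections of 29, 28, 28 and 28 members by rank from the D segments. In B cell development segments near the D segments tend to be joined early, and distant ones depend on contraction of the locus. The section nearest the D segments, from Ighv5-2 to Ighv16-1, held 54.3%, 37.3% and 37.2% of the Ighv counts in floxed libraries and 59.3%, 42.7% and 37.0% with Vav1-Cre, and the groups overlapped (exact permutation p = 0.7). The next section, from Ighv9-1 to Ighv1-11, held 9.94%, 9.37% and 11.9% against 26.6%, 35.4% and 28.0%. It was the one section without overlap, with means of 10.4% ± 1.31 and 30.0% ± 4.73 (SD, n = 3 each, exact permutation p = 0.1, adjusted 0.4 over the sections). It holds Ighv6-3, Ighv12-3, Ighv6-6 and Ighv10-1. Without Ighv6-3 its difference was 6.56 in place of 19.6 percentage points, and the groups still did not overlap. The remaining sections, which hold 25 and 23 members of family 1, overlapped (exact permutation p = 0.3 each). Members that rose were found in every section, 5 of 22 tested in the nearest, then 8 of 23, 4 of 18 and 8 of 23. Of all tested genes 10.1% rose, and some of these members passed the count filter only through the Vav1-Cre libraries.

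The segments at the ends of the locus both rose. Ighv5-2, the member nearest the D segments and one often joined early in B cell development, had 0.106, 0.322 and 0.754 CPM in floxed libraries and 18.1, 19.2 and 3.01 with Vav1-Cre (log2 fold change 5.07, SE 1.10, adjusted p = 0.0475). Its call was lost without any 1 floxed library or Vav1-Cre library 1 or 2 (adjusted p 0.103 to 0.165). Ighv1-85, the most distant member, had 4, 1 and 1 counts in floxed libraries and 182, 78 and 34 with Vav1-Cre (log2 fold change 5.81, SE 0.91, adjusted p = 0.0084). It was lost without floxed library 2 (0.0606) or 3 (0.0537). Ighv1-85 had no floxed library above the limit of the count filter and so had to be higher with Vav1-Cre. Ighv5-2 did not overlap between the groups, and for Ighv1-85 the lack of overlap was fixed by the filter.

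The other named segments had higher means with Vav1-Cre and did not pass. Ighv5-6 had 399, 23 and 148 counts in floxed libraries and 4165, 2257 and 374 with Vav1-Cre (log2 fold change 3.87, adjusted p = 0.149). Ighv9-3 had 103, 92 and 408 against 4203, 2529 and 402, so that its counts overlapped but its CPM did not (log2 fold change 3.85, adjusted p = 0.116). Ighv1-26, among the 3 highest of floxed library 1, had 501, 79 and 176 against 599, 724 and 198 (log2 fold change 1.31, adjusted p = 0.399). Ighv4-1, the only member of its family, had 11, 1 and 64 counts against 259, 397 and 1102 (log2 fold change 4.83, adjusted p = 0.0735). Ighv8-8 (3.94, adjusted p = 0.0757) and Ighv2-2 (4.10, adjusted p = 0.188) led families 8 and 2 by mean CPM. Ighv13-2 and Ighv15-2, each alone in its family, had 0 counts in floxed libraries and 8, 41 and 1, and 2, 2 and 15, with Vav1-Cre, too few to be tested.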

How the data were processed

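RNA was extracted from bone marrow LSK cells with TRIzol and sequenced from Illumina TruSeq RNA libraries, per the labels' protocols. Per the submitters' processing notes Bowtie and the mm8 genome were used. Not given in the sources used here were the counting tool, its annotation, the strand setting and the treatment of reads that fit several genes. Each deposited table gives a read count and an FPKM value per Ensembl gene, per the file headers. Identifiers and gene lengths implied by the authors' FPKM matched GENCODE release M21 (GRCm38): 54409 of 54532 identifiers matched, 123 did not, and the implied length was equal for 94.4% to 94.6% of genes per library and for all 113 members. Coordinates and sequences are from that release. Library sizes behind the deposited FPKM followed median-ratio size factors, not raw totals.

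Counts as deposited were tested with edgeR 4.0.16 (R 4.3.3; TMM, filterByExpr at a minimum count of 10, robust quasi-likelihood F test, groups only) over all genes, and p-values were adjusted by Benjamini-Hochberg over the 14608 genes tested. Fold changes are Vav1-Cre over floxed. Shares per library were compared by two-sided exact permutation tests (SciPy 1.17.1). Libraries of a group differed beyond sampling noise (chi-square per gene at least 11.1). TMM factors ran from 0.916 to 1.09. Segments were compared by sequence over the last 290 bases. The edgeR fit was tested on simulated counts, which varied less between libraries than the members did, so that test does not cover calls at their spread. Alternatives were DESeq2 1.42.0, limma-voom 3.58.1, other scalings and count filters, log2 of the deposited FPKM plus 1 or 0.1, and leaving out each library.

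The members, marker lists and tests were chosen with earlier results of these data known. Named segments are the 12 with the highest mean CPM, the highest of each family, the 3 highest of each library, the 8 with the smallest p and the 8 with the largest change among those past the threshold, and both ends of the locus. Ighv1-23, Ighv1-77, Ighv1-49, Ighv8-5, Ighv1-47, Ighv1-62-2, Ighv2-4, Ighv11-1 and Ighv9-4 were chosen after their values were seen, as were Ighv1-71 and the segments named for having no counts.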

Additional observations from a re-analysis of the deposited data

How the results depend on the processing

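No paired analysis was possible because the labels carry no replicate numbers shared between groups. Over all genes, 2621 passed in the reported test, 1581 with log2 FPKM plus 1, 1548 with FPKM plus 0.1, 611 with FPKM plus 1 and no filter, and 1218 to 3295 when 1 library was left out. Of the Ighv segments, 25 rose in the reported test, 51 in DESeq2, 51 in edgeR without robust estimation and 27 in limma-voom. The number was 40 with log2 FPKM plus 1, 43 with FPKM plus 0.1, and 18 with FPKM plus 1 and no filter. It was 30 in edgeR with no count filter, and 6 to 40 when 1 library was left out. The number called lower was 0 in the reported test, 1 in DESeq2, 1 without robust estimation, and 0 to 1 when 1 library was left out. Leaving out 1 library turned the direction of some values, given here as the range over the libraries left out. The log2 fold change ran from -0.99 (without Vav1-Cre library 3) to 2.84 for Ighv1-47, and from -0.016 (without floxed library 2) to 0.35 for Ighv1-77. Differences in share of Ighv counts, Vav1-Cre minus floxed in percentage points, ran from -0.974 to 1.43 for family 3 and from -0.174 to 1.18 for family 8, both lowest without Vav1-Cre library 3. They ran from -0.517 to 1.25 for family 9, below 0 without floxed library 1 (-0.0564) or Vav1-Cre library 1, and from -3.08 (without Vav1-Cre library 1) to 9.08 for the section nearest the D segments. The cause was not tested. The other differences in share, effective number and log2 ratio kept their direction in the alternatives run, but not their size. With FPKM in place of counts the difference in Ighv share of the total was 2.65 in place of 0.54 percentage points. No adjusted permutation p of these results passed 0.05 in any setting, which this design does not allow. Segments at a handful of floxed counts are limited by depth, and 3 libraries per group cannot give a permutation p under 0.1.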
